A study of Mus musculus with 29 samples.

Results

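The comparison described here is that of 6 libraries of V617F Ezh2 -/- megakaryocyte-erythrocyte progenitors (MEPs) with 4 libraries of V617F Ezh2 +/+ MEPs. These 10 libraries were chosen by their labelled genotype, with no use of measured values, from 29 mouse RNA-seq libraries of 6 genotypes. Both groups carried the SclCre transgene (spelled ScleCre in some labels) and JAK2 V617F, so the difference between them is the loss of both Ezh2 alleles. The V617F Ezh2 +/+ group was labelled as 1 male and 3 female samples, and the 6 V617F Ezh2 -/- samples were all labelled female. The comparison closest to it is Ezh2 -/- (n = 4, 1 male) against Ezh2 +/+ (n = 5, 2 males) on the same SclCre background without V617F, with which it shares no library. A group of 6 female V617F Ezh2 +/- libraries shows the levels with 1 Ezh2 allele left. Each sample was RNA of 230000 sorted MEPs. For the ages of the mice, the sorting gates and the deleted part of Ezh2, the sources used here give nothing. The labels say only "replicate", so each p-value measures only how far these samples spread, which may be technical.

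EZH2 is the catalytic subunit of Polycomb repressive complex PRC2, which methylates lysine 27 of histone H3 at the promoters of silent genes, and PRC1, the partner complex, binds that mark. JAK2 V617F is an activating kinase mutation of the myeloproliferative neoplasms, in which loss of EZH2 function is found as an additional lesion in some patients with myelofibrosis. MEPs are the bone marrow progenitors of megakaryocytes and red cells. In many tissues loss of PRC2 activity is known to let silent developmental genes be transcribed.

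The 10 libraries held 31583023 to 47723981 counts, and 15488 to 16387 genes had at least 1 count. The floor of a single library, taken as 3 counts, corresponds to 0.0629 to 0.095 counts-per-million (CPM, counts scaled to the library's effective size), and floors cover counting error only. V617F Ezh2 +/+ replicate 1 stood apart from its group. On the first principal component of the 10 libraries (54.9% of the variance) it lay at -8.46, against 34.6 to 77.2 for the other 3 V617F Ezh2 +/+ libraries and -47.7 to -10.5 for the V617F Ezh2 -/- libraries. Labelled female, it held 0.985 CPM of Xist, the RNA of the inactive X chromosome, and 0.0259 CPM over 4 Y-linked genes, whereas the other 22 female libraries of the series held 1574 to 2574 CPM of Xist. Many of the results that change without this library are given both ways, but not all of them. The summed level of 19 MEP identity genes was 5110 to 5729 CPM in V617F Ezh2 +/+ and 5458 to 5896 CPM in V617F Ezh2 -/-, so MEP markers were present at like levels in both groups.

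Ezh2 RNA followed the labels. The 4 V617F Ezh2 +/+ libraries held 244, 289, 308 and 313 CPM, and the 6 V617F Ezh2 -/- libraries held 51.2 CPM at the lowest, 54.9 CPM at the median and 59.5 CPM at the highest. The groups did not overlap, and Ezh2 fell by 2.38 ± 0.08 on the log2 scale (fold change ± SE, as in all that follows; edgeR's quasi-likelihood F test, Benjamini-Hochberg adjusted p = 8.02e-17). Counts are per gene, so the RNA left in V617F Ezh2 -/- could not be placed on exons. Jak2, which encodes the mutated kinase, measured 231 ± 10 CPM (mean ± SD, n = 4) and 237 ± 6.65 CPM (n = 6) with overlapping libraries (0.03 ± 0.05, adjusted p = 0.678). The counts do not separate the mutant allele from the normal one.

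After Ezh2 loss under V617F, the called increases were larger and lay in genes of lower expression than the called decreases. Of 13928 genes tested, 3709 (26.6%) passed an adjusted p of 0.05, the threshold used throughout for the words rose, fell, higher and lower. There were 1814 higher genes (13%) with a median log2 change of 0.84, and 1895 lower genes (13.6%) with a median of -0.26, while the median over all tested genes was -0.00343. At least 2-fold changes were nearly all increases, with 802 genes higher (5.76%) and 44 lower (0.316%). The 2 counts were 551 and 21 with a filter of at least 1 CPM in 4 libraries, and 641 and 29 without V617F Ezh2 +/+ replicate 2. In 1393 genes (10%) every V617F Ezh2 -/- library lay above every V617F Ezh2 +/+ library, and in 1129 (8.11%) every one lay below. Of the higher genes 1258 were without overlap, and of the lower genes 966.

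The level of a gene separated the directions. Among the 2394 tested genes with a mean under 1 CPM over the 29 libraries, 421 rose (17.6%) and 41 fell (1.71%). Among the 2627 genes over 100 CPM, 91 rose (3.46%) and 745 fell (28.4%). The size of the called changes followed the level in both directions. Median log2 changes of higher and lower genes were 2.0 and -1.34 under 1 CPM, and 0.30 and -0.25 over 100 CPM. At few counts only large changes can pass the threshold, and the part of this in the contrast of sizes was not tested. The mean levels include the compared libraries. A gene of few counts can pass the low-count filter only through the libraries where it is high. How many did so was not counted, so these shares and the 2-fold counts are descriptions. The higher genes were also longer in the deposited annotation, with a median of 3610 bases against 2803 over all tested genes and 2291 for the lower genes. In these bulk RNA samples, fewer cells of a type and less RNA per cell cannot be told apart.

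The number of calls rested on single V617F Ezh2 +/+ libraries, and that of lower genes more than that of higher ones. Without replicate 4, 1837 genes passed, 1195 higher and 642 lower, and without replicate 2 there were 2311 in all, of which 1005 were lower. The lower count was also 1175 without V617F Ezh2 +/+ replicate 3, and 1184 and 1261 without V617F Ezh2 -/- replicates 2 and 4. Without replicate 1, the library that stood apart, 5118 genes passed, 2520 higher and 2598 lower. Scaling by library totals only moved the median of all genes to 0.0704 and gave 2195 higher (67.5% of the calls, against 48.9%) and 1059 lower genes. None of the 3709 genes changed sign under it, but a shift of this size leaves little room for that.

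V617F Ezh2 +/+ replicate 1 was most often the library closest to the V617F Ezh2 -/- levels. Of the 802 genes at least 2-fold higher, it held the highest level of the 4 V617F Ezh2 +/+ libraries in 507 (63.2%), against 40.9% over all tested genes. Of the 1895 lower genes it held the lowest level in 1453 (76.7%), against 37.9% over all tested genes.

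**Figure D1:**
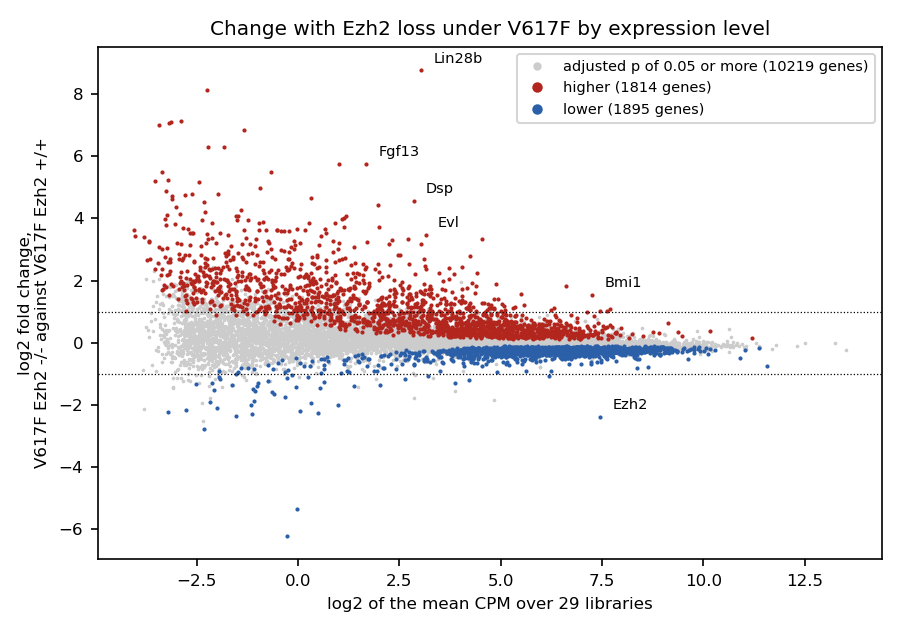
Log2 fold change of V617F Ezh2 -/- against V617F Ezh2 +/+ (y axis) by the log2 of the mean CPM over 29 libraries (x axis), 1 point per tested gene, with the 1814 higher genes in red and the 1895 lower genes in blue. Dotted lines mark a 2-fold change. Increases are largest on the left, where genes are near the counting floor, and most decreases lie to the right within 2-fold.

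The genes taken as markers of the comparison were Lin28b, Fgf13 and Bmi1, and all 3 rose. Promoters of Lin28b and Bmi1, and that of Ddah1, another switched-on gene described below, are shown because PRC2 is known to bind promoters rich in the dinucleotide CG. They are the 250 bases before the start site from RefSeq (build GRCm38.p6, while the counts came from an mm9 alignment), with CG in capitals on the strand shown, at chr10:45470202-45470451 (minus strand), chr2:18676768-18677017 (plus strand) and chr3:145758442-145758691 (plus strand).
Lin28b: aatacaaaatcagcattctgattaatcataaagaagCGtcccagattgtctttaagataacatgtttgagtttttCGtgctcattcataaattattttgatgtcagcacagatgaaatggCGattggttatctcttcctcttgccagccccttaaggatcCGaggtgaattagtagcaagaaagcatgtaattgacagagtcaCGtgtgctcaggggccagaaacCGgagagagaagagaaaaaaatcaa
Bmi1: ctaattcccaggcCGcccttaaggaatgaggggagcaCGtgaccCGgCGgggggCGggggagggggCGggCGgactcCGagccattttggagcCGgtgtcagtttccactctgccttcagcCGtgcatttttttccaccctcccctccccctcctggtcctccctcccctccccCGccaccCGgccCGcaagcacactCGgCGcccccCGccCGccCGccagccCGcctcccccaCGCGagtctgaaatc
Ddah1: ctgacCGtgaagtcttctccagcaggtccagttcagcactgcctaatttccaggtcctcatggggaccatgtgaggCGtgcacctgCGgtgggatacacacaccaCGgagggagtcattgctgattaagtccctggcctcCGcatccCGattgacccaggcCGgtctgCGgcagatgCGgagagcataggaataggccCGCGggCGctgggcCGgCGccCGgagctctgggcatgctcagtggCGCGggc
The Lin28b window holds 6 CG, a number reached by 50.4% of the 32851 mouse promoters of the same length in the RefSeq table, whose median is 6. The Bmi1 window holds 21 (reached by 16.4%) and the Ddah1 window 17 (reached by 23.5%). Only 78.6% of tested genes had a promoter in the table. Over these the median, taking the start with most CG per gene, was 16, so the Ddah1 window lies near it. The median was 18 for higher, 17 for lower, 16 for at least 2-fold higher and 10 for the switched-on genes described below. At least 10 CG were held by 74.9% of tested, 70.9% of at least 2-fold higher and 51.35% of switched-on genes. These differences were not tested. The counts bear on RNA alone, and nothing about binding is drawn from these letters.

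Lin28b, an RNA-binding protein that blocks let-7 microRNA maturation and belongs to the fetal blood program, had 13 counts over the 4 V617F Ezh2 +/+ libraries (0.104, 0.0484, 0.109 and 0.0456 CPM). The V617F Ezh2 -/- libraries held 22.7 to 39.5 CPM with a median of 28.6 CPM. The log2 change was 8.77 ± 0.37 (edgeR adjusted p = 3.6e-15), the highest of the genes that the naming rule ranked by size. Levels in V617F Ezh2 +/- were 0.0772 ± 0.0546 CPM (n = 6), near those of V617F Ezh2 +/+.

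Fgf13, which encodes an intracellular FGF homologue that binds sodium channels and microtubules, measured 0.104, 0.145, 0.109 and 0.16 CPM in V617F Ezh2 +/+ (22 counts in all). It measured 6.44 to 9.5 CPM (median 7.77) in V617F Ezh2 -/- (5.74 ± 0.33, edgeR adjusted p = 3.18e-12). Bmi1, the PRC1 ring-finger subunit, was expressed in both groups, at 91.8, 97.1, 93.9 and 92.6 CPM and at 254 to 306 CPM (median 262). Its log2 change was 1.54 ± 0.05 (adjusted p = 8.02e-17), and its groups were far apart relative to their spread.

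**Figure D2:**
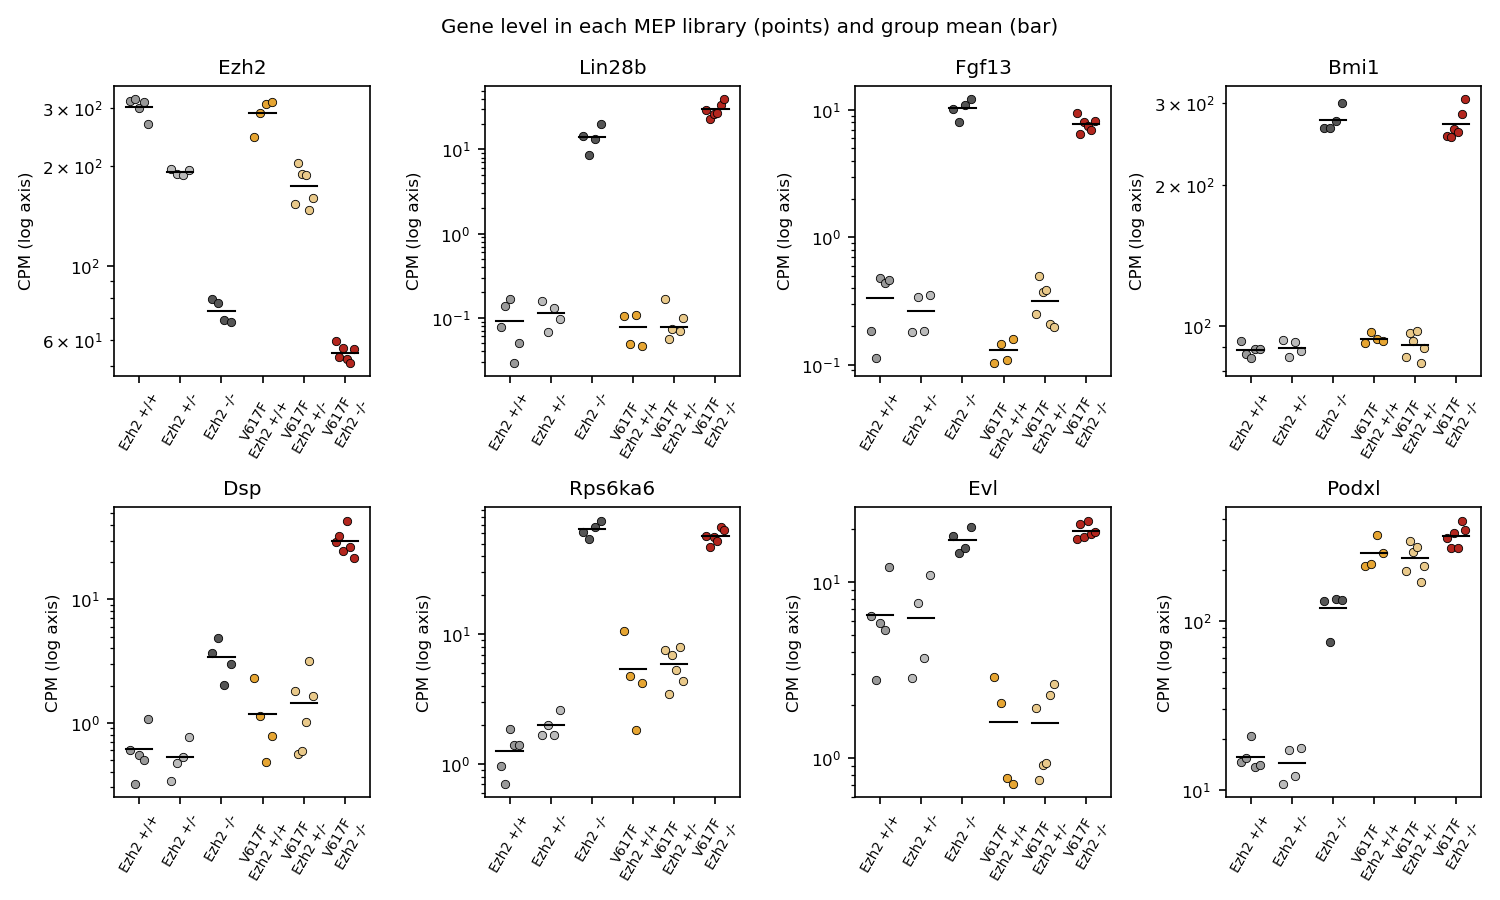
CPM of 8 genes (log axis, scale set per gene) in each library of the 6 genotypes, with a bar at the group mean. Ezh2 falls with each allele lost, Lin28b and Fgf13 lie near the counting floor except in the Ezh2 -/- groups, and Podxl is high in all 3 V617F groups.

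Lin28b and Fgf13 were among 43 higher genes that went from a mean under 0.5 CPM to a mean of at least 2 CPM, called switched on here. Without V617F, 29 of the 43 were higher after Ezh2 loss as well, and 14 did not pass. Both the 43 and the 29 count Snrpn and Snurf separately, although their counts were identical in every library. Ddah1, an enzyme that degrades the nitric oxide synthase inhibitor dimethylarginine, held 0.0518, 0.387, 0.327 and 0.433 CPM in V617F Ezh2 +/+ and 5.62 to 7.84 CPM (median 6.76) in V617F Ezh2 -/- (4.42 ± 0.32, edgeR adjusted p = 2.6e-10). Chn1, a GTPase-activating protein for Rac, rose by 4.02 ± 0.26 to 6.22 ± 0.776 CPM. Dock3, a guanine nucleotide exchange factor for Rac known from neurons, rose by 3.98 ± 0.53 to 6.73 ± 1.08 CPM, and by 4.96 without V617F Ezh2 +/+ replicate 1. With any of the 10 libraries left out, 41 to 43 switched-on genes were counted. In the fit of the 2 groups alone with a replicate block the number was 37. No alternative counted more than 43, so the range shows losses only. A gene this low with Ezh2 may pass the low-count filter only through libraries without Ezh2, so the 43 are a description.

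Among the largest increases were Dsp, Enah and Evl. Dsp, which encodes the desmosomal protein desmoplakin, measured 2.31, 1.14, 0.479 and 0.776 CPM in V617F Ezh2 +/+ and 21.5 to 43.5 CPM (median 27.9) in V617F Ezh2 -/- (4.57 ± 0.46, edgeR adjusted p = 6.1e-08). Enah and Evl encode actin regulators of the Ena/VASP family. Enah rose by 4.07 ± 0.52 to 9.62 ± 2.8 CPM, and by 4.90 without V617F Ezh2 +/+ replicate 1. Evl rose by 3.48 ± 0.42, from 2.88, 2.06, 0.762 and 0.707 CPM to 17.5 to 22.2 CPM.

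Rps6ka6, Bmpr1a and Spats2 were also among the genes with the largest increases. Rps6ka6, a ribosomal S6 kinase, held 10.7, 4.81, 1.85 and 4.2 CPM in V617F Ezh2 +/+ and 47 to 67 CPM (median 56.9) in V617F Ezh2 -/- (3.35 ± 0.30, edgeR adjusted p = 8.92e-09). Bmpr1a, a receptor of bone morphogenetic proteins, held 3.68, 1.62, 0.283 and 0.844 CPM and 15.5 to 18.7 CPM (3.35 ± 0.50). Without V617F Ezh2 +/+ replicate 1, Bmpr1a rose by 4.07 and Spats2 by 4.11, against 3.32 ± 0.36 with it. In Dsp, Enah, Evl, Dock3, Bmpr1a, Rps6ka6 and Spats2 that replicate was the highest of its group, and all 6 V617F Ezh2 -/- libraries were above it. Ank2, which links membrane proteins to the spectrin skeleton, and Fam169a rose by 3.23 ± 0.27 and 3.18 ± 0.28. Of the other 5 Rps6ka kinases only Rps6ka2 passed (0.72 ± 0.25), and not without V617F Ezh2 +/+ replicate 2, 3 or 4 (adjusted p = 0.12, 0.072 and 0.094) or V617F Ezh2 -/- replicate 2 or 4 (0.067 and 0.07).

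The decreases described next are the 12 largest without overlap among genes averaging at least 2 on the log2 CPM scale, Ezh2 included. Susd2 fell from 7.9, 11.7, 20.2 and 14.8 CPM to 4.04 to 6.62 CPM (-1.31 ± 0.22, edgeR adjusted p = 0.000137). Slc26a1, a sulfate transporter, fell by 1.20 ± 0.25, and the transmembrane serine protease gene Hpn fell by 1.08 ± 0.18 (71.9 ± 12.5 to 33.3 ± 7.51 CPM). The cation channel gene Trpv2 fell by 0.92 ± 0.12, the glutathione transferase gene Gsta4 by 1.06 ± 0.24, and the desaturase family gene Fads3 by 0.90 ± 0.16. The others in this set of 12, with Ezh2 itself, were 1700097N02Rik (-1.17 ± 0.16), Prelid2 (-0.93 ± 0.17), the purine phosphorylase gene Pnp2 (-0.90 ± 0.21), Dcaf12l1 (-0.86 ± 0.17) and Ccdc116 (-0.82 ± 0.14). Only 2 genes went from at least 2 CPM to under 0.5 CPM, the stefin genes Stfa1 and Cstdc5. Both were carried by V617F Ezh2 +/+ replicates 1 and 2 (8.01 and 7.96 CPM of Stfa1, 7.08 and 6.14 CPM of Cstdc5), with 0 to 0.0228 CPM in replicates 3 and 4, and without replicate 2 neither passed (adjusted p = 0.054 for both).

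Among the Polycomb genes, PRC2 subunits moved in both directions, and more PRC1 subunits rose than fell. Of 12 PRC2 core and accessory genes 4 rose and 5 fell (33.3% and 41.7%, against 13% and 13.6% of all genes), with a median log2 change of -0.04. The 5 lower genes include Ezh2, which the genotype removes, and without it 4 of 11 fell (36.4%, median 0.06). Epop, an accessory subunit that links PRC2 to elongin, rose from 5.65, 4.11, 5.86 and 5 CPM to 13.9 to 20.1 CPM (1.74 ± 0.17, edgeR adjusted p = 4.38e-08). The accessory subunit genes Phf19 and Jarid2, whose products direct PRC2 to chromatin, rose by 0.46 ± 0.10 and 0.37 ± 0.08. The core subunit gene Eed changed by -0.37 ± 0.08, with V617F Ezh2 +/+ replicate 1 (89.2 CPM) inside the range of V617F Ezh2 -/- (76.7 to 89.3 CPM). Suz12, the other core scaffold, did not pass. The paralogue Ezh1 rose by 0.26 ± 0.09, but not with any of 6 libraries left out (adjusted p from 0.051 to 0.095, V617F Ezh2 +/+ replicates 2, 3 and 4 and V617F Ezh2 -/- replicates 1, 2 and 4). The count of lower PRC2 genes was 3 without V617F Ezh2 +/+ replicate 2, 3 or 4 or V617F Ezh2 -/- replicate 2, and also 3 among female libraries and 2 under scaling by library totals.

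Of 21 PRC1 genes 10 rose (47.6%) and 3 fell, with a median of 0.05. Beside Bmi1, the chromobox gene Cbx2 rose by 0.64 ± 0.08 (16.9 ± 1.56 to 25.5 ± 1.37 CPM), the Scm homologue Scmh1 by 0.54 ± 0.07 and Cbx6 by 0.32 ± 0.06. Pcgf6, a subunit of a variant PRC1, changed by -0.33 ± 0.08 (edgeR adjusted p = 0.00641). The range over left-out libraries was 8 to 10 higher genes. Of 14 H3K27 demethylase and trithorax genes only Kmt2c passed (0.28 ± 0.08), and of 10 DNA methylation, Tet and Asxl genes 1 rose (Dnmt3b, 0.34 ± 0.08) and 2 fell, shares near those of all genes.

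Of 13 fetal-type genes 8 had enough counts to be tested, and 5 of them rose (13% of all genes rose). Of these 5, 3 reached the 0.224 CPM of the low-count filter in fewer than 4 of the 19 libraries with an Ezh2 allele, so they passed that filter only through libraries without Ezh2, and the count is a description. The same holds for 2 of the higher imprinted, 2 of the higher kinase inhibitor, 2 of the higher matrix and 3 of the higher B lineage genes below. It also holds for 1 higher gene in each of 5 lists below. These are the Pbx, Meis and Pknox, the neuronal, the megakaryocyte, the JAK-STAT5 target and the inflammatory lists. Igf2bp3, a fetal RNA-binding protein, had 1 count in the 4 V617F Ezh2 +/+ libraries (0.0259 CPM in replicate 1) and 0.338 to 1.33 CPM in V617F Ezh2 -/- (edgeR adjusted p = 8.97e-07). Hmga2, a fetal chromatin protein, rose from 0.752, 0.435, 0.174 and 0.137 CPM to 1.67 to 2.74 CPM (2.55 ± 0.56, adjusted p = 0.0018). Arid3a, a transcription factor gene, rose by 0.56 ± 0.11. The embryonic globin gene Hba-x, counted in this list, passed at a mean of 0.166 CPM. With libraries left out 4 or 5 genes were called.

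Imprinted genes, which are expressed from 1 parental allele, rose in 7 of 19 tested (36.8%) and fell in none, with 7 more of the list not tested. Peg10 rose from 5.05, 4.72, 2.94 and 5.63 CPM to 22.4 to 35.3 CPM (2.41 ± 0.22, edgeR adjusted p = 2.01e-08). Grb10, an adaptor that restrains growth factor receptors, rose by 0.50 ± 0.08 (173 ± 12.8 to 237 ± 8.3 CPM). Snrpn (3.63 ± 0.60, and 4.63 without V617F Ezh2 +/+ replicate 1) shared all its counts with Snurf, so reads of these overlapping genes were not told apart. The count of higher imprinted genes was 9 without V617F Ezh2 +/+ replicate 1 and 4 without replicate 4.

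Among 7 cyclin-dependent kinase inhibitor genes 3 rose (42.9%). The count was 4 without V617F Ezh2 +/+ replicate 1 and 2 without replicate 2, 3 or 4. Cdkn2b rose by 1.97 ± 0.37 to 0.703 ± 0.239 CPM. Cdkn2a, which encodes p16 and p19Arf, measured 1.04, 0, 0.0435 and 0.0456 CPM in V617F Ezh2 +/+ and 1.35 to 3.75 CPM (median 1.75) in V617F Ezh2 -/- (2.82 ± 0.68, edgeR adjusted p = 0.00401). Its change was 5.91 without V617F Ezh2 +/+ replicate 1, the library that held the 1.04 CPM, and in the fit of the 2 groups alone it did not pass (adjusted p = 0.071) and 1 of the 7 genes was called. Of 14 D cyclin and G1 entry genes 3 rose (21.4%, against 13%) and 2 fell (14.3%, against 13.6%), and none fell without V617F Ezh2 +/+ replicate 2, 3 or 4 or V617F Ezh2 -/- replicate 2, 3 or 4, among female libraries or under scaling by library totals. Among them Ccnd3, the main D cyclin of red cell precursors, rose by 0.37 ± 0.07 and Myc by 0.49 ± 0.11.

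Homeobox genes of the HoxA and HoxB clusters and their cofactors moved in part. Of 13 Hox genes 3 rose (23.1%, against 13% of all genes) and 1 fell (7.69%, against 13.6%), with a median of 0.38. Without V617F Ezh2 +/+ replicate 1, 7 rose. Hoxa4 rose by 1.53 ± 0.20 and Hoxa10 by 1.23 ± 0.32, while Hoxb2 fell by 1.45 ± 0.34 (edgeR adjusted p = 0.00285). Without V617F Ezh2 +/+ replicate 1 the change of Hoxb2 was -1.02. Of 8 Pbx, Meis and Pknox genes 4 rose (50%). Pbx3, a HOX cofactor, rose from 16.4, 12.6, 8.14 and 10.5 CPM to 34.5 to 39.2 CPM (1.61 ± 0.11, adjusted p = 4.44e-11), and Meis3 rose by 3.63 ± 0.53 to 1.24 ± 0.271 CPM. Of 7 developmental regulators known as PRC2 targets only Twist1 passed, and it did not pass without V617F Ezh2 +/+ replicate 2 (adjusted p = 0.067) or 4 (0.084). A further 6 members of that list had no count in any of the 10 libraries.

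Genes of the extracellular matrix rose in 10 of 23 tested (43.5%) and fell in none, with 10 more of the list not tested. Nid1, a basement membrane protein, rose from 1.4, 1.04, 1.94 and 1.14 CPM to 7.86 to 10 CPM (2.82 ± 0.20, edgeR adjusted p = 1.71e-10). Lamc1, the shared laminin gamma chain, rose by 1.20 ± 0.15, the nidogen Nid2 by 2.11 ± 0.35 and the proteoglycan gene Agrn by 0.67 ± 0.12. The summed level of the list was 209 to 390 CPM in V617F Ezh2 +/+ and 414 to 465 CPM in V617F Ezh2 -/-. The count was 12 without V617F Ezh2 +/+ replicate 1, and 6 without replicate 4 and among female libraries. Of 9 stromal and endothelial genes 2 rose (22.2%), Pdgfrb (1.56 ± 0.40) and Kdr (1.57 ± 0.45), the latter not among female libraries (adjusted p = 0.062). The summed level of that list was 131 to 585 CPM in V617F Ezh2 +/+ and 327 to 452 CPM in V617F Ezh2 -/-, and its part in the matrix result was not tested.

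Neuronal and synaptic genes rose in 9 of 30 (30%, median 0.57), with Ank2, Syt7 (3.52 ± 0.49), Ncam1 (2.15 ± 0.48) and the neurofilament gene Nefh (0.74 ± 0.13, 67.6 ± 10.9 to 112 ± 15.5 CPM) lowest in adjusted p. That count was 14 without V617F Ezh2 +/+ replicate 1, 5 without replicate 3, and 4 without replicate 4 or among female libraries. Of 7 FGF ligand and receptor genes, Fgf13 and Fgfr3 rose (28.6%), and 4 did without V617F Ezh2 +/+ replicate 1. Fgfr3 went from 0.881, 0.508, 0.501 and 0.525 CPM to 2.36 to 3.21 CPM (2.09 ± 0.27, edgeR adjusted p = 3.06e-06). In the Podxl and CD34 family of 3 genes only Podxl2 passed (1.37 ± 0.42), and not without V617F Ezh2 +/+ replicate 2 (adjusted p = 0.092) or 4 (0.096).

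**Figure D3:**
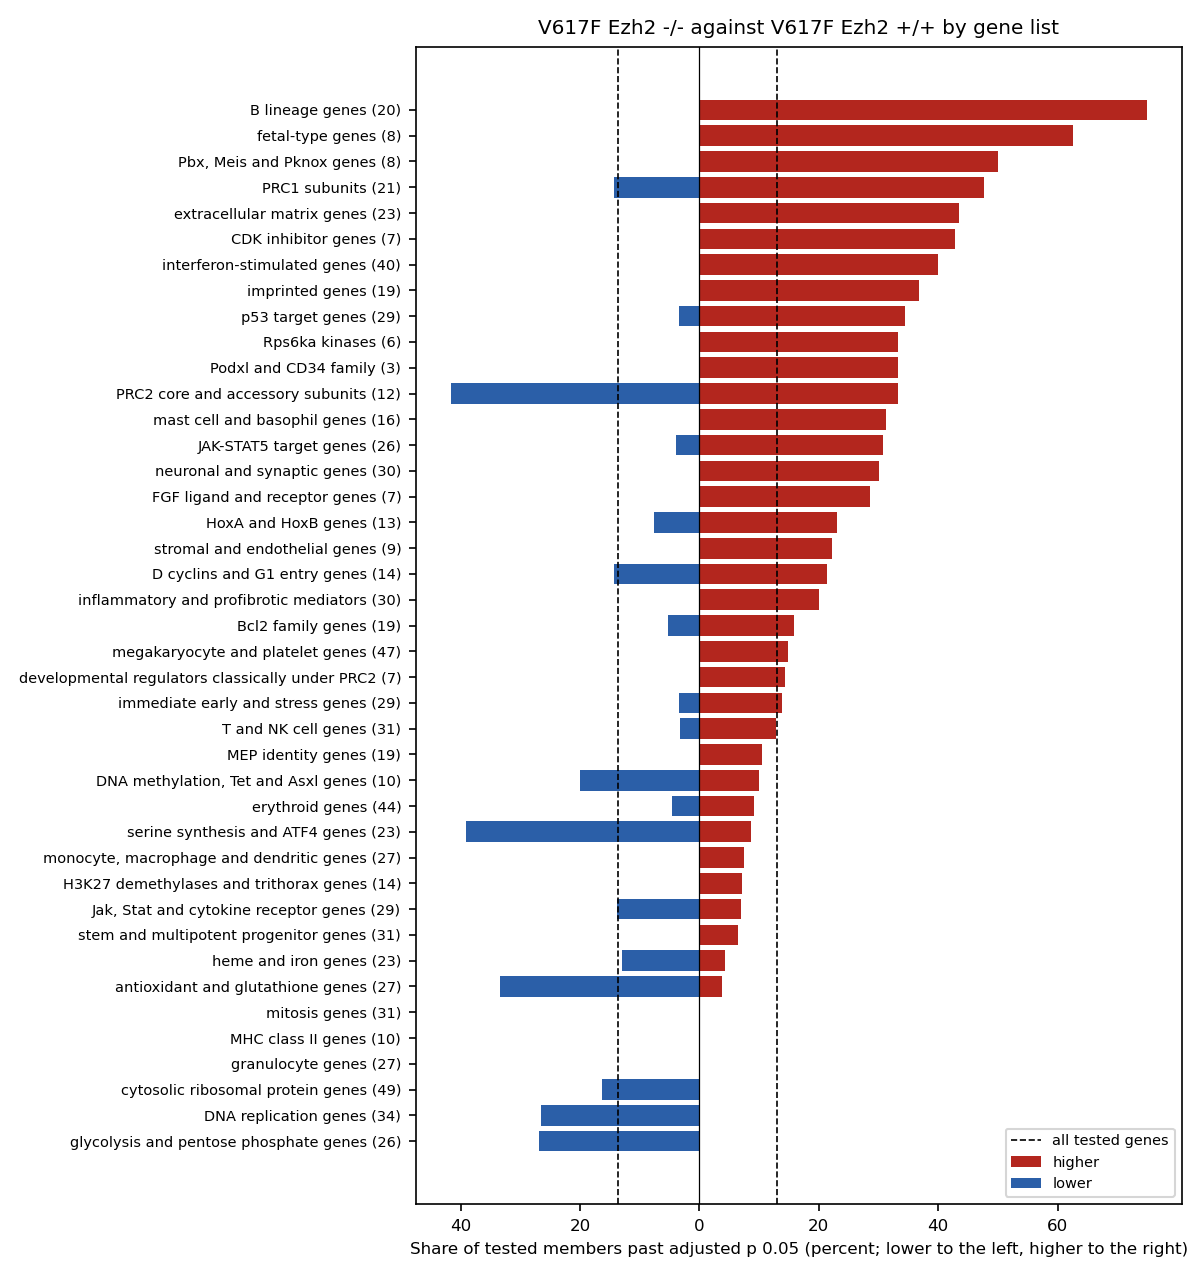
Share of tested members (percent, x axis) that were higher (red, right) or lower (blue, left) in V617F Ezh2 -/- for each of 41 gene lists, with the number tested in brackets. Dashed lines give the shares over all tested genes, 13% higher and 13.6% lower. B lineage and fetal-type genes have the longest bars to the right. The PRC2 bar to the left counts Ezh2 itself.

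Interferon-stimulated genes rose in 16 of 40 (40%) and fell in none, with a median of 0.56. Usp18, which removes ISG15 from proteins and restrains interferon signalling, rose from 4.28, 5.51, 6.88 and 5.43 CPM to 11.4 to 22.5 CPM (1.49 ± 0.28, edgeR adjusted p = 0.000471). The antiviral gene Mx2 rose by 1.54 ± 0.32 and Ifi27 by 0.79 ± 0.17 (35.8 ± 6.04 to 62.9 ± 7.08 CPM). Irf7, a transcription factor of the interferon response, rose by 0.99 ± 0.27. In 21 of the 40 genes the V617F Ezh2 -/- libraries were all above the others, against 10% of all genes. The summed level of the list was 1283 to 1403 CPM in V617F Ezh2 +/+ and 1549 to 2017 CPM in V617F Ezh2 -/-. Without V617F Ezh2 +/+ replicate 4 the count of higher genes was 10, and in a fit of the 2 groups alone it was 25.

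Targets of the JAK-STAT5 pathway rose in 8 of 26 (30.8%, median 0.31) and 1 fell. The feedback inhibitor gene Socs2 rose from 15.1, 7.01, 5.33 and 5.54 CPM to 17.6 to 25.6 CPM (1.25 ± 0.28, edgeR adjusted p = 0.00215), and Ccnd3 and Myc, given above, also belong here. The pseudokinase gene Trib3 changed by -1.93 ± 0.36. There were 12 higher genes without V617F Ezh2 +/+ replicate 1 and 5 without replicate 4. Of 29 genes of Jaks, Stats and cytokine receptors 2 rose and 4 fell, by shares below or near those of all genes, with Stat5a at -0.18 ± 0.04 and Stat6 at -0.19 ± 0.04. Without V617F Ezh2 +/+ replicate 1, 5 rose and 6 fell. Under scaling by library totals none of the 4 lower genes was called, and Stat6 did not pass in the fit of the 2 groups alone (adjusted p = 0.054).

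Targets of p53 rose in 10 of 29 (34.5%) and 1 fell, with a median of 0.24. The higher count was 14 without V617F Ezh2 +/+ replicate 1. It was 7 without replicate 3 or 4, among female libraries or in the fit of the 2 groups alone. Phlda3, an inhibitor of Akt, rose from 3.16, 2.68, 3.83 and 3.74 CPM to 7.56 to 11.5 CPM (1.56 ± 0.15, edgeR adjusted p = 4.54e-08). Zmat3 rose by 0.96 ± 0.13, the death receptor gene Tnfrsf10b by 0.94 ± 0.18 and the BH3-only gene Pmaip1 by 1.52 ± 0.26, while Sesn2, also an ATF4 target, fell by 0.74 ± 0.12. The target gene Cdkn1a, which encodes p21, rose by 0.96 ± 0.33 with overlapping libraries (edgeR adjusted p = 0.0326). It did not pass without V617F Ezh2 +/+ replicate 2, 3 or 4 (0.134, 0.0706 and 0.0995), without V617F Ezh2 -/- replicate 5 (0.0743), among female libraries (0.102) or in the fit of the 2 groups alone (0.083). Mdm2, Bax, Ccng1 and Bbc3 did not pass. Of 19 Bcl2 family genes 3 rose (15.8%, against 13% of all genes) and 1 fell, and 6 rose without V617F Ezh2 +/+ replicate 1. Of 29 immediate early and stress genes 4 rose and 1 fell, and the share higher (13.8%) was near that of all genes. The higher count was 7, 1 and 2 without V617F Ezh2 +/+ replicates 1, 2 and 4. Of 30 inflammatory and profibrotic mediators 6 rose (20%), led by the procollagen proteinase gene Bmp1 (0.63 ± 0.09). That count was 3 without V617F Ezh2 +/+ replicate 2 or among female libraries, and 2 without replicate 4.

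Of 44 erythroid genes 4 rose (9.09%, against 13% of all genes) and 2 fell (4.55%, against 13.6%), with a median of -0.01. Without V617F Ezh2 +/+ replicate 1 there were 5 lower genes, without V617F Ezh2 -/- replicate 6 there were 4, without V617F Ezh2 +/+ replicate 4 there were 2 higher and 1 lower, and without replicate 2 there were 2 higher. Gata1 and Klf1, the main red cell transcription factors, did not pass (adjusted p = 0.919 and 0.991). The carbonic anhydrase genes Car1 (3273 ± 574 to 1884 ± 273 CPM, -0.74 ± 0.16, edgeR adjusted p = 0.0019) and Car2 (-0.51 ± 0.14) fell, and the membrane skeleton gene Dmtn rose by 1.10 ± 0.23. Car2 did not pass without V617F Ezh2 +/+ replicate 4 (adjusted p = 0.064) or among female libraries (0.06). Of 23 heme and iron genes 1 rose and 3 fell (13%, against 13.6% of all genes), but 8 fell without V617F Ezh2 +/+ replicate 1 and 1 without replicate 3 or 4. The iron exporter gene Slc40a1 changed by -0.69 ± 0.14 and the mitochondrial iron importer gene Slc25a37 by 0.49 ± 0.10. Of 19 MEP identity genes 2 rose (10.5%, against 13% of all genes). The count was 5 without V617F Ezh2 +/+ replicate 1 and 1 without replicate 2 or 4. Among the 2 was the urea transporter gene Slc14a1 (0.49 ± 0.06, 237 ± 8.64 to 338 ± 22.9 CPM).

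Of 47 megakaryocyte and platelet genes 7 rose (14.9%, against 13% of all genes) with a median of 0.39. The count was 12 without V617F Ezh2 +/+ replicate 1 and 4 without replicate 2 or 4. Thbs1, the platelet matrix protein thrombospondin 1, rose from 6.69, 3.34, 1.72 and 5.02 CPM to 19.4 to 30.6 CPM (2.46 ± 0.46, edgeR adjusted p = 0.000362). The ADP receptor gene P2ry1 rose by 0.72 ± 0.15 and the thrombin receptor gene F2r by 1.10 ± 0.27 (166 ± 50 to 377 ± 42.9 CPM). The summed level of the list overlapped between the groups, at 1875 to 4575 CPM and 3603 to 4851 CPM. The integrin gene Itga2b did not pass (adjusted p = 0.764). Of 31 stem and multipotent progenitor genes 2 rose (6.45%, against 13% of all genes), and 5 rose without V617F Ezh2 +/+ replicate 1. The 2 were Cd48 (0.90 ± 0.17) and the chromatin organizer gene Satb1 (1.74 ± 0.45).

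Genes of B lineage cells rose in 15 of 20 (75%), the largest share of any list, with a median of 3.36. Cd79a, part of the B cell receptor, measured 0.337, 0.459, 0.174 and 0.342 CPM in V617F Ezh2 +/+ and 0.528 to 6.55 CPM (median 4.37) in V617F Ezh2 -/- (3.44 ± 0.60, edgeR adjusted p = 0.000168). Blnk, its adaptor, rose by 3.0 ± 0.62 and the coactivator gene Pou2af1 by 3.28 ± 0.70, in both cases with overlapping libraries. The recombinase gene Rag2 had 3 counts in V617F Ezh2 +/+ and 0.0422 to 0.921 CPM in V617F Ezh2 -/-. The defining genes Pax5, Ebf1 and Rag1 were among the 15, while the mature B cell gene Ms4a1 did not pass.

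The B lineage levels differed widely within V617F Ezh2 -/-. The summed level of the list was 12.8 CPM in V617F Ezh2 -/- replicate 1 and 24.7 CPM in replicate 5, and 78.4, 86.9, 96.1 and 115.9 CPM in replicates 4, 6, 2 and 3. In V617F Ezh2 +/+ it was 6.90 to 18.9 CPM, so replicate 1 lay inside that range. Of the 20 genes, 2 were without overlap (Cd79a and Rag2), the same 10% as over all genes. The count of higher genes was 15 with any of the 10 libraries left out. It was 11 with a filter of at least 1 CPM in 4 libraries. In the fit of the 2 groups alone it was 14, and 12 with a replicate block and no sex term. The part of B lineage RNA in other results was not tested. Of the 43 switched-on genes 7 belong to this list.

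Markers of other cell types were counted in the same way. None of 27 granulocyte genes passed with edgeR (1 at an unadjusted p under 0.05, 1 called by DESeq2). Their summed level was 776 to 1447 CPM in V617F Ezh2 +/+ and 192 to 1611 CPM in V617F Ezh2 -/-. Of 27 monocyte, macrophage and dendritic genes 2 rose (7.41%, against 13% of all genes). Of 10 MHC class II genes none passed with edgeR, at an unadjusted p under 0.05 or with DESeq2. Of 31 T and NK cell genes 4 rose (12.9%, against 13%), with a summed level of 67.8 to 146.7 CPM in V617F Ezh2 +/+ and 139.4 to 231.9 CPM in V617F Ezh2 -/-. That count was 10 without V617F Ezh2 +/+ replicate 1, 8 without V617F Ezh2 -/- replicate 1, 2 and 1 without V617F Ezh2 +/+ replicates 3 and 4, and 8 with DESeq2. Cd3e fell by 2.20 ± 0.49 from 0.47 ± 0.313 CPM. Mast cell and basophil genes summed to 137.5 to 263 CPM in V617F Ezh2 +/+ and 249 to 363.8 CPM in V617F Ezh2 -/-. The part of these and the T and NK cell markers in the other results was not tested. Of 16 of these genes tested 5 rose (31.2%, against 13%), all with overlapping libraries, and the count was 1 without V617F Ezh2 +/+ replicate 2 or V617F Ezh2 -/- replicate 2 or 3, 2 without V617F Ezh2 +/+ replicate 1 or 3, and 3 without V617F Ezh2 -/- replicate 4 or 5.

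**Figure D4:**
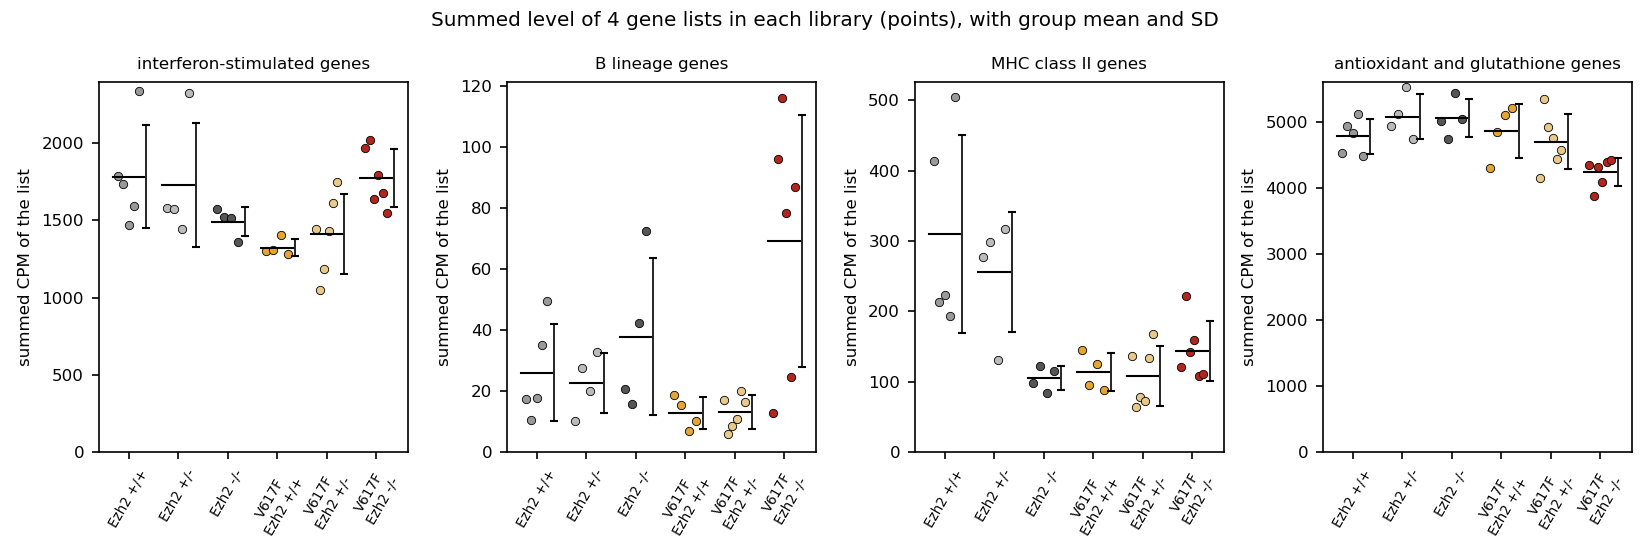
Summed CPM of 4 gene lists in each library (points), with group mean (horizontal bar) and SD (error bar), for the 6 genotypes. Interferon-stimulated genes are at 1549 to 2017 CPM in V617F Ezh2 -/- and 1283 to 1403 CPM in V617F Ezh2 +/+, while the B lineage sums of V617F Ezh2 -/- spread from 12.8 to 115.9 CPM.

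Several lists of metabolic genes held more lower members than the share over all genes. Falls were also more frequent among well-expressed genes, at 28.4% of all genes over 100 CPM. Whether the serine, antioxidant, glycolysis, DNA replication and ribosomal lists differ from genes of like level was not tested. Serine synthesis and ATF4 target genes fell in 9 of 23 (39.1%, against 13.6% of all genes) and rose in 2 (median -0.22). Psat1, an enzyme of serine synthesis, went from 238, 221, 225 and 210 CPM to 145 to 184 CPM (-0.42 ± 0.09, edgeR adjusted p = 0.00168), and Atf4 and Phgdh were also lower. The stress transcription factor gene Ddit3 fell by 0.54 ± 0.12, while Shmt1, a folate enzyme, rose by 0.54 ± 0.09 and Cth, which makes cysteine, by 1.06 ± 0.19. The range over left-out libraries was 7 to 10 lower genes.

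Antioxidant and glutathione genes fell in 9 of 27 (33.3%) and rose in 1 (median -0.17). The thioredoxin gene Txn1 went from 275, 271, 263 and 284 CPM to 215 to 243 CPM (-0.27 ± 0.06, edgeR adjusted p = 0.000934) and the lipid peroxidase gene Gpx4 fell by 0.41 ± 0.10. Slc7a11, the cystine importer gene, changed by -0.98 ± 0.23 with overlapping libraries. The count was 5 without V617F Ezh2 +/+ replicate 4 and 15 without replicate 1. Of 26 glycolysis and pentose phosphate genes 7 fell (26.9%) and none rose. The pentose phosphate enzyme genes Taldo1 (-0.52 ± 0.09) and Pgd (-0.35 ± 0.08) were the lowest in adjusted p. Without V617F Ezh2 +/+ replicate 4 the count of lower genes was 4, and without replicate 1, 8 fell and 2 rose.

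Of 34 DNA replication genes 9 fell (26.5%) and none rose (median -0.13), but this count was 0 without V617F Ezh2 +/+ replicate 4 and 2 without replicate 2 or 3. It was 15 without replicate 1, and 1, 4 and 2 without V617F Ezh2 -/- replicates 2, 3 and 4. It was also 0 among female libraries, 2 under scaling by library totals and 3 in the fit of the 2 groups alone. Of 31 mitosis genes none passed with edgeR, 2 had an unadjusted p under 0.05 and DESeq2 called 2, 1 in each direction. Of 49 cytosolic ribosomal protein genes 8 fell (16.3%, against 13.6% of all genes). That count was 15 without V617F Ezh2 -/- replicate 1, 3, 5 and 4 without V617F Ezh2 -/- replicates 2, 4 and 6, 4, 3 and 1 without V617F Ezh2 +/+ replicates 2, 3 and 4, 4 among female libraries, 2 under scaling by library totals, 3 with no sex term and 1 in the fit of the 2 groups alone.

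Loss of Ezh2 without V617F gave 1603 higher genes (11.5%) and 1704 lower (12.2%), and the 2 comparisons share no library. Of the higher genes 818 were common to both, which is 45.1% of those with V617F and 51% of those without, and 36 of the genes higher with V617F were lower without it. Of the lower genes 257 were common, 13.6% of those with V617F and 15.1% of those without. Over all tested genes 12.2% were lower without V617F and 13.6% with it, so the common decreases were near these shares. Among genes at least 2-fold higher, 415 were common (51.8% and 68.8%). Among the genes shared and named here are Lin28b (7.23 ± 0.32 without V617F), Fgf13 (4.95 ± 0.28), Bmi1 (1.65 ± 0.05), Pbx3 (1.88 ± 0.10) and Epop (1.55 ± 0.16).

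The test of the difference itself, the interaction of V617F with Ezh2 loss, called 1180 genes with a more positive change under V617F (8.47%) and 1483 with a more negative one (10.6%). Of the 1814 genes higher with V617F it called 447, and of the 1895 lower genes 768. These genes were selected in libraries that enter the interaction, so no direction is read from them. The total of 2663 depended on single libraries. It was 198 without Ezh2 -/- replicate 3, 531 and 895 without Ezh2 +/+ replicates 1 and 5, and 1727 without Ezh2 -/- replicate 1. Without V617F Ezh2 +/+ replicates 1 to 4 in turn it was 4623, 858, 1339 and 577, without V617F Ezh2 -/- replicates 2 and 4 it was 1197 and 1455, and among female libraries it was 128.

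Il18r1, a subunit of the interleukin-18 receptor, had the largest positive interaction by the naming rule (3.60 ± 0.61, edgeR adjusted p = 0.00347). It rose by 2.52 ± 0.44 with V617F, from 3.63, 1.52, 1.13 and 1.39 CPM to 7.1 to 17 CPM, and measured 5.16 ± 1.78 CPM in Ezh2 +/+ and 2.44 ± 1.09 CPM in Ezh2 -/- without V617F. At the other end, Fam124a (-3.10 ± 0.40) and Podxl, which encodes a CD34-related sialomucin (-2.57 ± 0.27, adjusted p = 7.07e-06), rose after Ezh2 loss without V617F and did not pass with it. Podxl was at 212, 218, 322 and 252 CPM in V617F Ezh2 +/+ and 267 to 390 CPM in V617F Ezh2 -/-, against 15.8 ± 2.98 CPM in Ezh2 +/+ and 118 ± 29.1 CPM in Ezh2 -/-. Rps6ka6 rose in both, by 3.35 ± 0.30 with V617F and 5.66 ± 0.32 without, and reached 57.3 ± 7.3 and 64.6 ± 8.85 CPM from 5.39 ± 3.76 and 1.27 ± 0.45 CPM (interaction -2.31 ± 0.40, adjusted p = 0.00364). These 4 interactions passed in each left-out-library fit and among female libraries.

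By list, the called interactions went in a single direction in many groups. Over all genes 8.47% were more positive and 10.6% more negative. All calls were more positive in the megakaryocyte (11 of 47), immediate early (9 of 29), T and NK cell (8 of 31) and Jak, Stat and receptor lists (8 of 29). All were more negative among mitosis genes (8 of 31). Among female libraries these counts were 0, 0, 1, 1 and 0. Of the 40 interferon-stimulated genes 24 had a more positive change under V617F and none a more negative one. Without V617F 5 of them fell and none rose. The 10 MHC class II genes all fell without V617F, and 8 were called in the interaction, with Cd74 at 2.83 ± 0.73, H2-Aa at 2.72 ± 0.74 and H2-Eb1 at 2.68 ± 0.73. Their summed level was 193 to 505 CPM in Ezh2 +/+ and 83.6 to 122 CPM in Ezh2 -/-, and 89 to 146 CPM and 109 to 222 CPM in the V617F groups. Of 34 DNA replication genes 16 had a more negative change under V617F (13 rose and 1 fell without it), and of 27 antioxidant genes 10 did.

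These list counts rested on the same libraries as the total. Without Ezh2 -/- replicate 3 the counts of the interferon, MHC class II, DNA replication and antioxidant lists were 3, 1, 1 and 1. Among female libraries they were 4, 1, 1 and 1, in the same order. Without V617F Ezh2 +/+ replicate 4 they were 5, 4, 5 and 3, without V617F Ezh2 +/+ replicate 2 they were 12, 5, 7 and 2, and without Ezh2 +/+ replicate 1 they were 10, 4, 4 and 2. Without Ezh2 +/+ replicate 5 they were 11, 7, 10 and 3. The interferon count was also 14 and 15 without V617F Ezh2 -/- replicates 2 and 4. The antioxidant count was 3 without V617F Ezh2 +/+ replicate 3, 5 without V617F Ezh2 -/- replicate 2 or 4 and 6 without Ezh2 -/- replicate 4. The DNA replication count was 9 and 10 without V617F Ezh2 +/+ replicate 3 and V617F Ezh2 -/- replicate 2. Cd74, H2-Aa and H2-Eb1 did not pass without Ezh2 -/- replicate 3 (adjusted p = 0.063, 0.071 and 0.071), without Ezh2 +/+ replicate 1 (0.051, 0.054 and 0.056), without V617F Ezh2 +/+ replicate 4 (0.051, 0.059 and 0.06) or among female libraries (0.062, 0.07 and 0.072). H2-Aa and H2-Eb1 did not pass without V617F Ezh2 +/+ replicate 2 either (0.0503 for both).

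**Figure D5:**
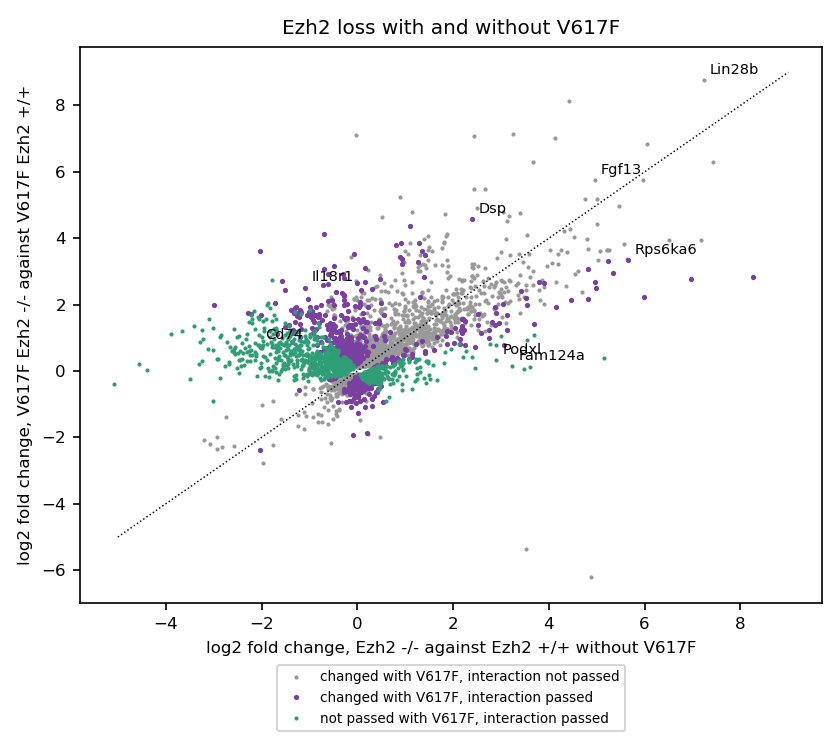
Log2 fold change after Ezh2 loss with V617F (y axis) against that without V617F (x axis), 1 point per gene called with V617F or in the interaction, with the line of equal change. Lin28b and Fgf13 lie high in both, Podxl and Fam124a lie far to the right near 0 on the y axis, and Cd74 lies to the left of 0.

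With 1 Ezh2 allele left under V617F, these genes measured as follows. Fgf13 was at 0.318 ± 0.12 CPM in V617F Ezh2 +/- (n = 6), above the 0.104 to 0.16 CPM of V617F Ezh2 +/+ and below the 6.44 to 9.5 CPM of V617F Ezh2 -/-. In Ezh2 +/+ without V617F, with both alleles present, the mean of Fgf13 was 0.335 CPM. Bmi1 was at 90.9 ± 5.71, Dsp at 1.46 ± 0.979, Rps6ka6 at 5.94 ± 1.84, Evl at 1.57 ± 0.802 and Usp18 at 7.64 ± 2.53 CPM. Pbx3 was at 16.7 ± 0.4 CPM, its mean just above the highest V617F Ezh2 +/+ library. V617F Ezh2 +/- against V617F Ezh2 +/+ called only Ezh2 (1 gene), and 881 genes had p under 0.05 before adjustment. V617F Ezh2 -/- against V617F Ezh2 +/- called 3633 genes (26.1%), and both of these comparisons share libraries with the main one, so they are given only side by side.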

How the data were processed

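RNA of sorted MEPs was sequenced, and the submitters deposited 1 file per library with a gene length and a read count per gene. The reads were aligned to mm9 with STAR, per the submitters' processing notes. Versions and counting settings: not given in the sources used here. Deposited counts are raw whole numbers of reads per Entrez gene, and the deposited gene length column (bases) was used only to describe genes. Of 18834 genes, 18772 received a symbol by Entrez ID from a RefSeq table (GRCm38.p6), from which no coordinates other than those of the printed promoters were taken.

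All 29 libraries were fitted together with edgeR 4.0.16 in R 4.3.3 (TMM scaling, filterByExpr with a minimum count of 10 and a total of 15, quasi-likelihood F test, two-sided, genotype group and labelled sex as terms, 22 residual degrees of freedom), which tested 13928 genes with Benjamini-Hochberg adjustment over all of them at 0.05. The biological coefficient of variation was 18.1%. The script was tested on simulated data. The 10 compared libraries held 31583023 to 47723981 counts.

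Named genes were the 12 with the largest change in each direction among called genes without overlap and averaging at least 2 on the log2 CPM scale, Ezh2, Jak2, Lin28b, Bmi1 and Fgf13, up to 4 members per list and direction with the lowest adjusted p, 6 switched-on and the switched-off genes, and 6 interaction genes in each direction. Lineage-defining markers and a few further list members were named after their values were seen. The members and lists were chosen with earlier results of these data known. Alternatives were DESeq2 1.42.0, other scalings and filters, fits of the 2 groups or of female libraries, no sex term, a replicate block and each library left out. Same-numbered libraries of the groups did not deviate together. Some named genes are not reported here.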

Additional observations from a re-analysis of the deposited data

Results flagged for a closer look

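In 2 groups a single library lay far from the others of its group: Bmpr1a in V617F Ezh2 -/- replicate 6 (15.5 CPM, the lowest) and Ccdc116 in V617F Ezh2 +/+ replicate 3 (6.6 CPM, the highest). Chance flags about 1 in 20 groups in this way.

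In 22 named genes the change after Ezh2 loss differed between libraries with and without V617F by edgeR's interaction test. The change was more positive with V617F (log2 difference) in Il18r1 (3.60), the cytokine receptor gene Csf2rb (3.02), Cd74 (2.83), Adam11 (2.78), H2-Aa (2.72), H2-Eb1 (2.68), Dsp (2.17), Evl (2.06) and Jak2 (0.28). It was more negative in Fam124a (-3.10), Neo1 (-2.63), Podxl (-2.57), Rps6ka6 (-2.31), Ncam1 (-2.31), Bex1 (-2.22), Spats2 (-1.92), Hpn (-0.95), Pnp2 (-0.95), Fads3 (-0.76), Prelid2 (-0.69), Trpv2 (-0.52) and Ezh2 (-0.35). Without V617F Ezh2 +/+ replicate 1 the values of Neo1, Bex1 and Spats2 were -1.20, -1.35 and -1.11. Rps6ka6, Il18r1, Fam124a and Podxl passed in all 27 alternatives run. The others failed in some, also with single libraries left out: of the 27, Ezh2 passed in 8, Prelid2 in 10, Csf2rb in 12, Trpv2 in 13, Pnp2 in 17 and Fads3 in 19, and the remaining 12 in 22 to 26.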

How the results depend on the processing

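Of 3259 values of named genes under the alternatives run, 2967 kept their direction and side of the threshold, 292 no longer passed and 0 reversed. Of 594 interaction values 466 kept both, 128 no longer passed and 0 reversed. Among female libraries 2268 genes were changed by Ezh2 loss with V617F and 902 were lower, 1681 were changed without V617F, and 128 had an interaction. Lower genes numbered 1059 under scaling by library totals and 1075 in the fit of the 2 groups alone. With a replicate block, the fit of the 2 groups alone called 2003 genes, 732 of them lower, and in the fit of all libraries the block gave 3457 changed genes and 1623 interactions. Replicate numbers did not pair the samples (correlations of deviations -0.251, 0.132, -0.19 and -0.352 for numbers 1 to 4), and no library correlated best with its own number. DESeq2 called 4196 genes (2042 higher), 3871 without V617F and 3533 interactions. With 1 library left out, the ranges were 1837 to 5118 changed, 1195 to 2520 higher and 642 to 2598 lower genes, 585 to 1195 at least 2-fold higher, 29 to 45 at least 2-fold lower, 41 to 43 switched on, 2209 to 3597 changed without V617F and 198 to 4623 interactions. The causes of these shifts were not tested. Below 3 counts per library, 0.0629 to 0.095 CPM, levels could not be told from 0.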
